A study of Homo sapiens with 11 samples.

Results

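In BEAS-2B cells, an immortalised line of human bronchial epithelial cells, 314 of 26237 listed promoters (1.2%) carried a lower level of H3K4me3 under nickel, and were chosen by a score of -0.16 or less between nickel-exposed and untreated cells. The score was the square root of the H3K4me3 level in Ni-E cells divided by the median level of that library, minus the same quantity in UT cells, and the level of a promoter was its RPKM (reads per kilobase of window, scaled to the depth of the library) over 2 kb on each side of the transcription start site. UT cells were untreated and Ni-E cells were grown in 100 μM NiCl2 for 6 weeks. BEAS-2B Ni-W cells had the same exposure and were then kept without nickel for more than 6 months, as a population grown from a single colony and picked at random, so that they stand for 1 clone. One part of the labels gives 2 weeks without nickel for this line too. Each BEAS-2B condition had 1 H3K4me3 library here. RT4 cells, a line from a human bladder cancer, were profiled by RNA-Seq untreated, after the same exposure and after a further 2 weeks without nickel, with 2 replicates of each group.

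Trimethylation of lysine 4 of histone H3 (H3K4me3) is laid down around the start sites of active and poised genes by the SET1 and MLL methyltransferase complexes, which the unmethylated CpG islands of promoters help to recruit, and it is removed by demethylases of the KDM5 family. The KDM5 enzymes need iron and oxygen, and nickel ions can take the place of iron in enzymes of this kind. The level of the mark tends to follow transcription but does not by itself report it.

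The depth recovered from the deposited values was 28385725 reads in UT, 37494075 in Ni-E and 29933551 in Ni-W cells. The promoter windows held 37.6% of the reads in UT and 36.0% in Ni-E cells but 22.9% in Ni-W cells, and the median promoter was at 1.57, 1.39 and 1.12 RPKM. RT4 libraries held 17075833 to 27736454 estimated counts, and in each group replicate 2 was the deeper. RT4 cells expressed urothelial markers such as UPK2 (285 and 402 TPM, transcripts scaled to a fixed total, in UT cells). In BEAS-2B cells the promoters of the simple epithelial keratins KRT8 (7.33 RPKM) and KRT18 (7.26 RPKM) were marked in UT cells and those of the basal cell markers KRT5 (0.220 RPKM) and TP63 (0.388 RPKM) were near background, while the mesenchymal gene VIM was at 8.95 RPKM. Of the fibroblast markers COL1A1 (8.74 RPKM) and PDGFRA (2.61 RPKM) were marked in UT cells too, and COL3A1 was not (0.167 RPKM). The epithelial markers CDH1 and EPCAM were at 1.02 and 2.21 RPKM. The promoters of the blood markers PTPRC and CD3E did not pass 0.360 RPKM.

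The promoter sequences of 6 of the 9 lowest scores are shown because they stand at the low end of the set and differ in base composition. C3, KIAA1614 and LOC101929089 are named only. They are from RefSeq on GRCh38.p14, from 250 bases before to 50 after the start, and run 5′ to 3′ along the strand of the gene, with capitals where a motif was matched on either strand. The motifs searched were the TATA box TATAAA, the box read by the factor NF-Y, CCAAT, the GC box GGGCGG, the E-box CACGTG, the AP-1 site TGACTCA, the hypoxia response core ACGTG (which overlaps the E-box) and the ETS core CCGGAA. ELF3 is at chr1:202010337-202010636 (+), ADM2 at chr22:50481293-50481592 (+), TMEM25 at chr11:118530942-118531241 (+), PDZK1IP1 at chr1:47189987-47190286 (-), FAM131A at chr3:184335676-184335975 (+) and NXPH2 at chr2:138780341-138780640 (-).
ELF3: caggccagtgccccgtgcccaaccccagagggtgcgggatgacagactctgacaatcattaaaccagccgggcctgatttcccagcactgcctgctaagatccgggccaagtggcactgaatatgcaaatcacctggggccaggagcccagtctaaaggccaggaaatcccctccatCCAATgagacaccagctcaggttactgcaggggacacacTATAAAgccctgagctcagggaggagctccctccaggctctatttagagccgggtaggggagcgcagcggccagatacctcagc
ADM2: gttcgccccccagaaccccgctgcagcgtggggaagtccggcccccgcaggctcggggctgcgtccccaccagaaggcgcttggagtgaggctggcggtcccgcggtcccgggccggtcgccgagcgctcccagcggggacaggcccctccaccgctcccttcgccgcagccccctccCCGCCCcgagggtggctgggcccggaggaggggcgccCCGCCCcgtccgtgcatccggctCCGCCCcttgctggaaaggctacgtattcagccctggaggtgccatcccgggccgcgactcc
TMEM25: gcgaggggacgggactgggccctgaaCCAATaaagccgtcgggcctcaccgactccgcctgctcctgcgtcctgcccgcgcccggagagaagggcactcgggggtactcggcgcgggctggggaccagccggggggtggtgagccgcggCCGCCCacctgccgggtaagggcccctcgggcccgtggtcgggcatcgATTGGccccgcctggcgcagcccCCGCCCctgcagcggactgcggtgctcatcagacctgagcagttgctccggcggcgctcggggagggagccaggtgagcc
PDZK1IP1: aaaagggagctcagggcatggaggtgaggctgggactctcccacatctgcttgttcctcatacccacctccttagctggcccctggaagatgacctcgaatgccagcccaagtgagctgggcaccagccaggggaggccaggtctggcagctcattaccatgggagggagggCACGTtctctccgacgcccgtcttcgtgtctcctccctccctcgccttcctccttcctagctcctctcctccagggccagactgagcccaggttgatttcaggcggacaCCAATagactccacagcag
FAM131A: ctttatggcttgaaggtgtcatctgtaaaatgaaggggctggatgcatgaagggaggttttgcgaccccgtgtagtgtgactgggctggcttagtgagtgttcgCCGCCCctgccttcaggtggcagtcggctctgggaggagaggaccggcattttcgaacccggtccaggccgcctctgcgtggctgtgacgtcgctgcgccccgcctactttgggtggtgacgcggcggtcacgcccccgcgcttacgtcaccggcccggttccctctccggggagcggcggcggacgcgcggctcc
NXPH2: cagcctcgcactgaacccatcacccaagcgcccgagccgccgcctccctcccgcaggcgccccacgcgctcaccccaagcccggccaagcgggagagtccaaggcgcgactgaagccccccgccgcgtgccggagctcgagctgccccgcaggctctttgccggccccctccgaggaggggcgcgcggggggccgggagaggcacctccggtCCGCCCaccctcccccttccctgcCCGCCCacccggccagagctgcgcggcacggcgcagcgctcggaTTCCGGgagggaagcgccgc
The ELF3 promoter was the 1 of these with a TATAAA match, and its GC content was 59.0%. With 61.0% in PDZK1IP1 it was poor in CpG, at 0.269 and 0.291 times the CpG number that its C and G content gives. The other 4 ranged from 65.7% to 77.7% GC and from 0.757 to 0.936 in that ratio, and each held at least 1 GGGCGG match.

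The levels that chose the set are given as a description. The median level of the 314 promoters was 2.84 RPKM in UT cells (0.247 to 11.3), 1.67 RPKM in Ni-E cells (0.0670 to 8.58) and 1.76 RPKM in Ni-W cells (0.0330 to 17.1). Relative to the library medians, the median ratio of Ni-E to UT was 0.709, against 1.10 over all promoters. Scores ran from -0.578 to -0.16 with a median of -0.194, and counting error alone gave the Ni-E vs UT score a 95% range of 0.100 on each side. In all 314 the 95% Wilson interval of the level in Ni-E cells lay below that in UT cells. This was so in 8.88% of all promoters, with both levels in RPKM before scaling by the library medians. These intervals cover counting error only, since there was no replicate. Whether the mark was lower in every cell or absent from some of the cells cannot be told apart in such bulk samples.

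Promoters of a middle level gave most of the set. Of 2176 promoters with 1 to 3 RPKM in UT cells 6.16% were lowered, of 4431 with 3 to 6 RPKM 2.37%, of 6293 with 6 to 12 RPKM 0.667%, and of 12394 below 1 RPKM 0.266%, which made 33 promoters. The weakest was AQP12B, of an aquaporin, with 28 reads in UT, 11 in Ni-E and 4 in Ni-W cells. At the edge of the rule, DNAJC22 (5.28 and 3.89 RPKM in UT and Ni-E cells), TMEM95 (1.45 and 0.893 RPKM) and MIR1260B (9.10 and 7.01 RPKM) were just inside the threshold. MIR920 (0.335 and 0.127 RPKM), MIR6746 and LINC01093 (each 0.467 and 0.207 RPKM) were just outside.

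ELF3, an epithelial transcription factor of the ETS family, had the lowest score of all listed promoters (-0.578), with 4.55 RPKM in UT, 1.76 in Ni-E and 3.20 in Ni-W cells. ADM2, which encodes the peptide hormone intermedin, was at 4.48, 1.79 and 1.67 RPKM. TMEM25, of a membrane protein of the immunoglobulin family, was at 3.15, 1.16 and 2.55 RPKM, and LOC101929089 was listed within 1 read of it in each library. C3, the central component of complement, was at 4.22, 1.96 and 2.02 RPKM. In RPKM before scaling by the library medians, ELF3 and TMEM25 were again higher in Ni-W cells than in Ni-E cells. ADM2 and C3 stayed within the counting intervals of the Ni-E level. With that scaling, the C3 score against UT cells was -0.452 in Ni-E and -0.296 in Ni-W cells. For ADM2 the scores were -0.554 and -0.469, so that on this scale both were less low in Ni-W cells. PDZK1IP1, a small membrane protein that binds PDZ domains, was at 3.13, 1.42 and 2.00 RPKM. FAM131A was at 5.05, 2.70 and 2.32 RPKM and KIAA1614 at 5.68, 3.17 and 3.95 RPKM. NXPH2, a neurexophilin that binds neurexins, was at 1.85, 0.693 and 1.60 RPKM. CPZ, a secreted carboxypeptidase, was at 2.48, 1.09 and 1.82 RPKM. FBXO41, an F-box protein, was at 1.89, 0.760 and 0.752 RPKM, and NDUFA4L2, a mitochondrial protein induced under hypoxia, at 6.59, 4.01 and 2.67 RPKM. Only NDUFA4L2 of these 12 had a Ni-W level whose interval lay below that of the Ni-E level, in RPKM before scaling by the library medians.

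**Figure D1:**
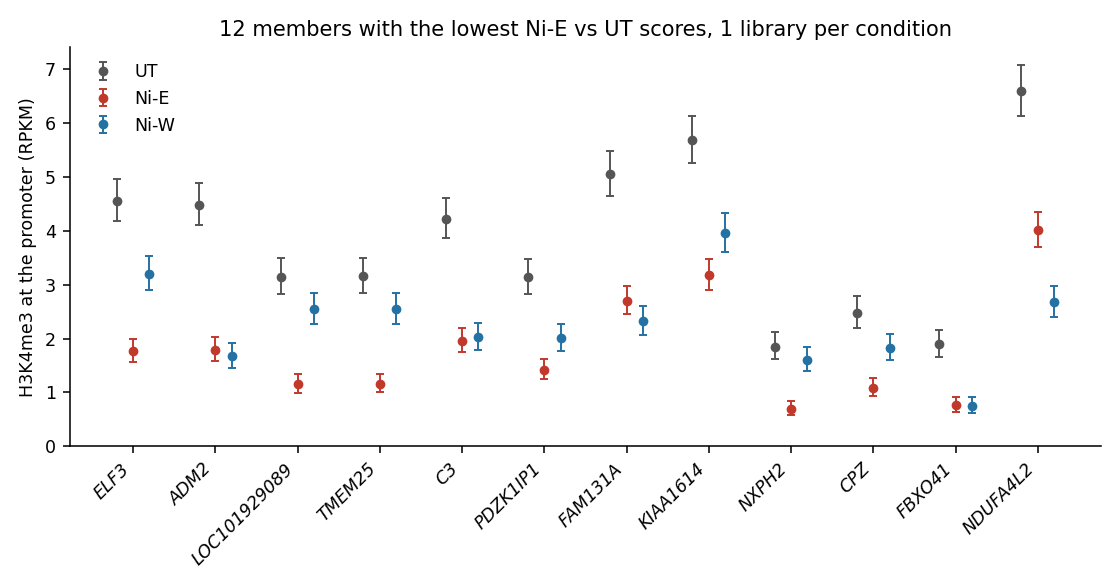
H3K4me3 level (RPKM, linear axis from 0) at the 12 promoters of at least 1 RPKM in UT cells with the lowest Ni-E vs UT scores, with 1 BEAS-2B library per condition (grey UT, red Ni-E, blue Ni-W). Bars are 95% Wilson intervals of counting error. The UT point is the highest for each gene, and the Ni-W point lies above the Ni-E point for ELF3 (3.20 against 1.76 RPKM) and below it for NDUFA4L2 (2.67 against 4.01 RPKM).

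The set was made mostly of protein coding genes, 257 of 314 (81.8%), beside 71.8% of all listed genes. Noncoding RNA genes gave 40 (12.7%, beside 20.5%). Start sites could be placed for 296 of them in GENCODE version 44, and since windows of start sites within 4 kb share reads, these were 278 separate places. Of these, 17 held more than 1 gene of the set (35 genes), among them SEMA5A with SNHG18 and SNORD123, FOXC2 with FOXC2-AS1, KCNJ2 with KCNJ2-AS1 and MIR15B with MIR16-2. Chromosome 17 held 32 lowered promoters of 1357 listed (2.36%) and chromosome 22 held 11 of 543 (2.03%), while chromosomes 13 and 9 held 3 of 580 and 5 of 968 (each 0.52%). For 262 of the lowered promoters at least 5 promoters of 1 RPKM or more lay within 1 Mb. The median of those neighbours' median scores was 0.0669, beside a median score of 0.0743 over all promoters of 1 RPKM or more in UT cells. The neighbours' median score was below 0 for 4. Another lowered promoter lay between 4 kb and 1 Mb away for 95 of the 296, and this share was not set beside that of other promoters.

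In base composition, the windows of 300 bases read from hg38 at these start sites had a median GC content of 67.5%, beside 61.7% over all promoters. Among promoters at 1 RPKM or more before exposure the medians were 67.3% and 66.3%, a smaller gap. In this subset the ratio of observed to expected CpG was 0.754 in the lowered promoters and 0.854 in all. The subset does not match the level, with a median in UT cells of 3.14 RPKM in the lowered promoters and 6.18 RPKM in all. The part of the level in the GC content and in the motif shares below was not tested. CCGGAA, the ETS core, was matched in 11.6% of the lowered promoters of at least 1 RPKM and in 29.2% of all such promoters. CCAAT was matched in 29.6% and 36.0%, GGGCGG in 68.9% and 73.9%, CACGTG in 6.37% and 9.87% and ACGTG in 19.1% and 26.2%. TATAAA was matched in 8.61% and 5.51%, and TGACTCA, the AP-1 site, in 4.12% and 2.54%. A match is the presence of these letters in the window and not a bound site.

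After washout the set did not move as a whole. The Ni-W vs UT score was -0.16 or less in 154 of 314 (49.0%), beside 31.1% of all promoters, and 0.16 or more in 37 (11.8%), beside 13.6%. Of the promoters at 1 RPKM or more before exposure these shares were 146 of 281 (52.0%) beside 57.5%, and 32 (11.4%) beside 8.79%, but the median UT level there was 3.14 RPKM in the set and 6.18 RPKM in all. Within ranges of the UT level, the share still low was above that of all promoters in each range. It was 24.2% of the 33 below 1 RPKM, 29.9% of the 134 at 1 to 3 RPKM, 70.5% of the 105 at 3 to 6 RPKM and 76.2% of the 42 at 6 to 12 RPKM, beside 1.57%, 25.6%, 54.9% and 67.0%. The median Ni-W vs UT score was -0.151 (-0.829 to 1.63), beside -0.0266 over all promoters. The UT library stands in both this score and the rule. The share of reads in promoter windows was also lower in the Ni-W library (22.9% against 37.6%), and its part in these values was not tested.

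Against Ni-E cells, the Ni-W level was higher by a score of 0.16 or more in 106 of 314 (33.8%), beside 10% of all promoters, and lower by as much in 53 (16.9%), beside 36.8%. At 1 RPKM or more before exposure the shares were 92 of 281 (32.7%), beside 6.57%, and 51 (18.1%), beside 65.9%. The median score was 0.0563, beside -0.0746 over all promoters. Relative to the library medians, the Ni-W level lay between the Ni-E and UT levels in 110 (35.0%, beside 18.9%), below both in 122 (38.9%, beside 52.5%) and above both in 82 (26.1%, beside 28.6%). The Ni-E library is shared with the rule, so these shares are a description. Without scaling by the library medians, the median Ni-W vs Ni-E score of the 314 was -0.0674, with all promoters at -0.181, so that the sign of the first value depends on the scaling.

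The highest Ni-W levels of the set belonged to a single window on chromosome 3 that holds 2 microRNA genes inside the gene SMC4, a condensin subunit. MIR15B was at 8.13 RPKM in UT, 5.90 in Ni-E and 17.1 in Ni-W cells, and MIR16-2, whose start lies in the same window, at 7.43, 5.28 and 16.1 RPKM. These gave Ni-W vs UT scores of 1.63 and 1.61, of which the former was the highest among all 26237 promoters. MIR15B starts 5.31 kb after the start of SMC4, whose own promoter was at 21.1, 19.4 and 11.6 RPKM and so was lower after washout. The mature microRNAs are shown because they share a seed, the bases 2 to 8 that pair with target messages, in capitals. From RefSeq on GRCh38.p14, they lie at chr3:160404607-160404628 (+) and chr3:160404754-160404775 (+).
hsa-miR-15b-5p: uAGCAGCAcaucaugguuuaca
hsa-miR-16-5p: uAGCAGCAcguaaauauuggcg
Next came TFPI, an inhibitor of the tissue factor pathway of coagulation, with 3.003, 2.07 and 7.24 RPKM. TNFRSF11B, which encodes the decoy receptor osteoprotegerin, was at 4.82, 3.01 and 8.84 RPKM, ZNF484 at 4.71, 3.11 and 8.11 RPKM and MIR4797 at 3.06, 1.88 and 5.39 RPKM. In all 6 the Ni-W interval lay above the UT interval, in RPKM before scaling by the library medians. At the other end, EFNB3, an ephrin ligand, was at 6.73, 4.25 and 1.73 RPKM, and SLC16A13, a monocarboxylate transporter, at 9.63, 7.42 and 3.28 RPKM. CCDC85B was at 7.72, 5.66 and 2.80 RPKM and PRR34 at 7.997, 5.73 and 3.10 RPKM, beside TRIB3 and DDIT4 described below. These promoters were lower again in Ni-W than in Ni-E cells, with the intervals of the unscaled RPKM apart.

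**Figure D2:**
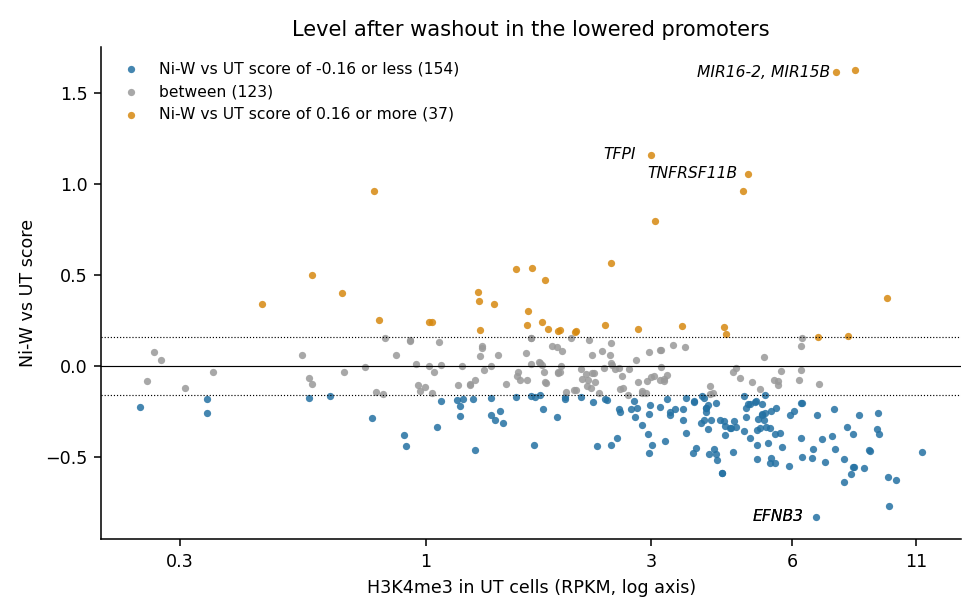
Ni-W vs UT score of the 314 lowered promoters against their H3K4me3 level in UT BEAS-2B cells (RPKM, log axis). Dotted lines are at -0.16 and 0.16. The 154 promoters still at -0.16 or less lie mostly on the right, at higher UT levels, and the 37 at 0.16 or more are spread over the whole range, with MIR15B and MIR16-2 at 1.63 and 1.61.

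By known function, 99 of the 314 were placed by hand, after the set was known, in 10 groups. The washout counts of the groups are read beside those of all promoters. There 31.1% had a Ni-W vs UT score of -0.16 or less and 13.6% of 0.16 or more. Among promoters of 1 RPKM or more in UT cells these shares were 57.5% and 8.79%. The group of complement, cytokine and innate immune genes had 18 members, of which 10 had a Ni-W vs UT score of -0.16 or less and 3 of 0.16 or more. Beside C3 it held both proteases that start the classical complement pathway, C1R (3.37, 2.07 and 1.70 RPKM in the same order) and C1S (1.37, 0.773 and 0.643 RPKM). Of the chemokines, CXCL8, which attracts neutrophils, was at 2.48, 1.65 and 3.71 RPKM, and CCL2, which attracts monocytes, at 6.27, 4.61 and 4.37 RPKM. The Toll-like receptor TLR2 was at 2.81, 1.78 and 1.38 RPKM, and IRAK3, an inhibitor of signalling from such receptors, at 1.58, 0.980 and 0.969 RPKM. The interferon-induced membrane protein IFITM1 was at 1.69, 0.933 and 0.409 RPKM. After scaling by the library medians, CXCL8 and TNFRSF11B were above their UT levels in washout by a score of 0.16 or more, and C3, C1R, C1S, TLR2 and IFITM1 were below by as much.

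The 17 genes of epithelial junctions, keratins and epithelial transcription factors included ELF3 and the transcription factor TFAP2A (2.18, 1.44 and 1.45 RPKM). The tight junction claudins CLDN3 (2.08, 1.33 and 1.16 RPKM) and CLDN7 (2.28, 1.36 and 1.39 RPKM), P-cadherin, encoded by CDH3 (2.19, 1.17 and 1.29 RPKM), and plakoglobin, encoded by JUP (5.21, 3.83 and 3.93 RPKM), were among them. KRT17, a keratin of basal and injured epithelium, was at 1.93, 1.17 and 1.29 RPKM. CLMP, an adhesion molecule of tight junctions, was at 2.98, 1.97 and 0.902 RPKM, the second lowest of the 17 in Ni-W vs UT score (-0.480) after PLEKHA7 (-0.556), a protein of the zonula adherens. Of the 17, 3 remained at -0.16 or less in washout and 1, periplakin (PPL, 1.01, 0.493 and 1.22 RPKM), was at 0.16 or more, with a median score of -0.0745. Without scaling by the library medians 15 were at -0.16 or less, beside 52.9% of all promoters, and 0 at 0.16 or more. The median of the 17 was then -0.310. After quantile normalization the numbers were 3 and 4.

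The 19 extracellular matrix genes were the largest group. HAS2, a synthase of hyaluronan, was at 1.79, 0.727 and 2.66 RPKM, and its antisense gene HAS2-AS1 was in the set as well (1.29, 0.500 and 1.92 RPKM). The aggrecan-cleaving protease ADAMTS5 was at 6.83, 4.98 and 4.42 RPKM and its relative ADAMTS15 at 5.58, 4.07 and 3.55 RPKM. EFEMP1, the matrix glycoprotein fibulin-3, was at 5.49, 4.02 and 3.60 RPKM, and the collagen receptor DDR2 at 4.15, 2.73 and 1.39 RPKM. In washout 9 of the 19 were at -0.16 or less, with DDR2 the lowest (-0.514), and 5 at 0.16 or more, with HAS2 the highest (0.473). The median of the 19 was -0.141, and 0.0365 after quantile normalization.

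Genes of the amino acid and endoplasmic reticulum stress response and of the hypoxia pathway were mostly still low after washout. All 6 of the former had a Ni-W vs UT score of -0.16 or less (-0.626 to -0.2495). TRIB3, a pseudokinase of the ATF4 response, was at 9.96, 7.45 and 4.02 RPKM, DDIT4, an inhibitor of mTORC1, at 9.58, 7.05 and 3.88 RPKM, CHAC1, which degrades glutathione, at 6.05, 3.91 and 3.29 RPKM, and the stress protein NUPR1 at 1.27, 0.553 and 0.217 RPKM. ALDH1L2, a mitochondrial folate enzyme, was at 3.74, 2.58 and 1.34 RPKM, and ADM2 was the sixth. Of 5 hypoxia genes, 4 were at -0.16 or less. EPAS1, which encodes HIF-2α and had the highest UT level of the 314, was at 11.3, 8.58 and 5.48 RPKM, PFKFB4, a regulator of glycolysis, at 3.50, 2.38 and 1.61 RPKM, the erythropoietin receptor EPOR at 4.83, 3.44 and 2.67 RPKM, and C10orf10 at 2.62, 1.63 and 1.53 RPKM. All but NUPR1 and C10orf10 of these 11 had over 3 RPKM in UT cells, a range where a low washout score was common among all promoters. After quantile normalization 5 of the 6 and 3 of the 5 were at -0.16 or less.

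Of 15 genes of ion channels, aquaporins and solute carriers, 9 were at -0.16 or less in washout and 0 at 0.16 or more. After quantile normalization these numbers were 5 and 1. They included the inward rectifier potassium channels KCNJ2 (6.29, 4.23 and 3.63 RPKM) and KCNJ12 (4.31, 2.95 and 1.83 RPKM) and the NMDA receptor subunit GRIN2D (2.88, 1.48 and 1.19 RPKM). The 7 developmental transcription factors, such as LHX9 (2.03, 1.01 and 1.87 RPKM), DLX4 (3.88, 2.38 and 2.18 RPKM) and HES2 (2.13, 1.39 and 1.11 RPKM), lay between -0.179 and 0.154 in Ni-W vs UT score. Of them 3 were at -0.16 or less and 0 at 0.16 or more, and 2 and 2 after quantile normalization. Of 7 neuronal adhesion and guidance genes, EFNB3 and FLRT2 (8.08, 5.91 and 3.30 RPKM) were at -0.16 or less, and the median of the 7 was 0.109, which was -0.273 without scaling by the library medians. The cell cycle pair was CDKN2B, the CDK4 and CDK6 inhibitor p15 (7.88, 5.99 and 6.49 RPKM), and the phosphatase CDC25B (8.72, 6.63 and 4.03 RPKM). The Ni-W vs UT score of CDKN2B was 0.166 and was -0.260 without scaling by the library medians. Of the retinoid genes, CRABP2 (2.40, 1.43 and 1.24 RPKM), RBP7 (3.85, 2.54 and 2.21 RPKM) and CYP26A1 (5.32, 3.89 and 2.25 RPKM) bind or degrade retinoids, and all 3 were at -0.16 or less (1 after quantile normalization).

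**Figure D3:**
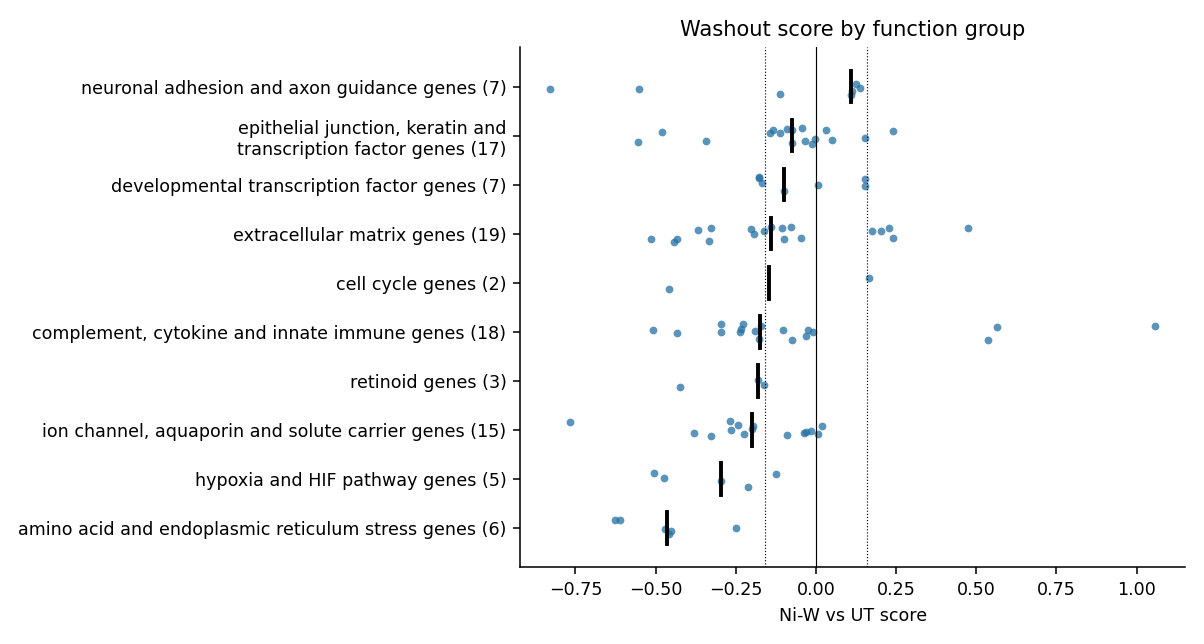
Ni-W vs UT score of the 99 lowered promoters placed in 10 function groups (group sizes in brackets), 1 point per promoter, with the group median as a black bar and dotted lines at -0.16 and 0.16. The 6 stress genes all lie below -0.16, and the immune and matrix groups spread to both sides, up to 1.06 (TNFRSF11B) and 0.473 (HAS2).

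Across families taken as a whole by gene symbol, with antisense and host genes counted in, the set took a small part of each. Over all promoters the share was 1.2%. The set held 8 of 160 matrix and protease genes (5%), 2 of 44 collagens (4.55%) and 8 of 274 ion channels (2.92%). It held 4 of 105 interleukins, chemokines and tumour necrosis factor ligands (3.81%) and 1 of 55 keratins (1.82%). It held 2 of 34 HIF targets (5.88%, DDIT4 and PFKFB4) and 1 of 12 metallothioneins (8.33%), MT1E, at 2.54, 1.54 and 0.860 RPKM. Shares that rest on 1 or 2 genes are too few to be read against 1.2%. It held 8 of 564 zinc finger genes (1.42%) and 7 of 1915 microRNA genes (0.366%). None of 78 ribosomal protein genes, 73 replication-dependent histone genes, 396 olfactory receptors, 27 JmjC histone demethylases, 27 TGF-beta genes, 24 NRF2 targets and 15 AP-1 and immediate early factors was in it. Apart from the olfactory receptors, these lists of 15 to 78 genes are too short for 0 to be told from 1.2%. Nor is 1.2% matched for level in any family. The share was 0.266% of promoters below 1 RPKM in UT cells and 6.16% of those at 1 to 3 RPKM. Whether the 0 of 396 olfactory receptors went with their level was not tested. The median Ni-E vs UT score of every one of these families was above 0, apart from the interleukin, chemokine and ligand family at 0.

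RT4 expression is a measurement the rule did not use, in another line. Of the 314 genes 299 were in the RT4 table, 45 of these were at 0 in all 6 libraries, and 177 had enough counts to be tested. The mean of the UT libraries was at least 1 TPM for 147 of 299 (49.2%), beside 49.1% of all listed genes in the table, and at least 5 TPM for 91 (30.4%), beside 39.1%. The most abundant was CTSH, the lysosomal protease cathepsin H, at 1613 and 1612 TPM in UT cells, followed by TNFAIP2 (1122 and 896 TPM), KRT17 (655 and 760 TPM), JUP (595 and 531 TPM) and ELF3 (304 and 293 TPM). None of these 5 was called between conditions. ELF3 was at 339 and 324 TPM in Ni-E and at 294 and 275 TPM in Ni-W cells, with a log2 fold change of 0.14 ± 0.18 (SE) between Ni-E and UT cells (adjusted p = 0.973, edgeR).

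Between RT4 Ni-E and UT cells, 13 of the 177 tested genes were called higher (7.34%, beside 1.45% of all 14502 genes tested) and 6 lower (3.39%, beside 0.71%), at a change of at least 1.5-fold and an adjusted p below 0.05 in edgeR's quasi-likelihood test. An unadjusted p below 0.05 was found for 59 (33.3%, beside 12.2%). The median log2 fold change of the 177 was 0.11, beside -0.01 over all genes tested, and 97 (54.8%, beside 48.4%) were above 0. Over all genes tested 211 were called higher and 103 lower, so that the balance of the 2 directions in the set was like that of all genes. The calls rest on 2 replicates a group, and with the replicate number as a block 65 were called (33 higher, 32 lower). Leaving out either UT or either Ni-E replicate left 0 or 1 call (EFEMP1, without UT replicate 1), with all 19 directions kept.

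The immune genes called were C3, C1S, CXCL8 and IFITM1. C3 was at 23.2 and 17.9 TPM in UT cells, 92.5 and 78.7 TPM in Ni-E cells and 117 and 84.5 TPM in Ni-W cells. Both groups lay apart from UT cells, with log2 fold changes of 2.06 ± 0.16 (SE) and 2.24 ± 0.16 (adjusted p = 0.00895 and 0.0131, edgeR). C1S was at 1.55 and 0.77, 4.49 and 4.39, and 7.76 and 5.56 TPM, with log2 fold changes of 1.94 ± 0.31 and 2.43 ± 0.32 (adjusted p = 0.0458 and 0.0488, edgeR). Its partner C1R was not called (20.6 and 18.9, 23.3 and 19.8, 30.8 and 29.2 TPM). CXCL8 was at 25.6 and 18.9, 136 and 116, and 93.6 and 48.4 TPM, with log2 fold changes of 2.55 ± 0.22 and 1.70 ± 0.21 (adjusted p = 0.0113 and 0.0466, edgeR). IFITM1, which has near copies in the IFITM family, was at 2.09 and 1.76, 15.9 and 17.3, and 32.1 and 54.4 TPM, with log2 fold changes of 3.08 ± 0.48 and 4.49 ± 0.49 (adjusted p = 0.0436 and 0.0312, edgeR). CCL2 was at 0 in all 6 libraries.

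Of the matrix genes, EFEMP1, HAS2, ADAMTS5 and ADAMTS15 were called higher in Ni-E cells. EFEMP1 was at 3.27 and 2.30, 21.6 and 21.5, and 14.7 and 10.8 TPM, with log2 fold changes of 2.95 ± 0.21 and 2.14 ± 0.21 in Ni-E and Ni-W against UT cells (adjusted p = 0.00873 and 0.0248, edgeR). HAS2 was at 1.28 and 1.12 TPM in UT, 9.22 and 5.55 TPM in Ni-E and 10.7 and 3.95 TPM in Ni-W cells, and was called in Ni-E cells (2.59 ± 0.43, adjusted p = 0.0477, edgeR). The sources used here do not give strand-specific counting, so reads of HAS2 and HAS2-AS1 cannot be told apart where they overlap. ADAMTS5 had 1 and 3 counts in UT and 77 and 91 in Ni-E cells, which scaled by depth is 40.0-fold with a 95% counting interval of 15.3 to 148. ADAMTS15 had 2 and 8 against 97 and 96 counts, 18.4-fold (9.77 to 38.9). Both lay between those levels in Ni-W cells, with 33 and 32 counts for ADAMTS5 and 18 and 31 for ADAMTS15, and neither was called there.

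Of the stress and hypoxia genes, DDIT4 was at 240 and 170 TPM in UT, 496 and 399 TPM in Ni-E and 370 and 274 TPM in Ni-W cells, with a log2 fold change of 1.12 ± 0.17 in Ni-E cells (adjusted p = 0.0379, edgeR). PFKFB4 was at 18.2 and 16.6, 73.7 and 65.3, and 40.7 and 34.2 TPM, with 1.99 ± 0.17 (adjusted p = 0.0110, edgeR). CHAC1 was at 7.81 and 8, 27.3 and 27.5, and 21.8 and 31.5 TPM, and missed the threshold (adjusted p = 0.0743, edgeR), and ADM2 was at 0.63 and 0.31, 1.53 and 1.10, and 1.87 and 1.5 TPM (adjusted p = 0.120). TRIB3 (93.6 and 82.3 against 90.6 and 89.1 TPM) and EPAS1 (215 and 126 against 177 and 115 TPM) overlapped between UT and Ni-E cells. The other genes called higher were HES2, a repressor of the Hairy and Enhancer of split family (0.85 and 0.51 against 6.67 and 4.48 TPM), PLXDC2 (1.82 and 1.23 against 5.76 and 4.74 TPM) and PDZK1IP1, with 2 and 5 counts in UT and 21 and 47 in Ni-E cells, 9.24-fold (4.25 to 23.9) after scaling by depth.

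The 6 genes called lower in Ni-E cells had no common role. CLDN3 had 27 and 53 counts in UT and 4 and 2 in Ni-E cells, and CPZ 28 and 63 against 4 and 3, so that the UT levels were 14.01-fold (6.16 to 39.3) and 13.7-fold (6.37 to 34.9) higher with 95% counting intervals. SCUBE2, a secreted protein with EGF-like domains, was at 1.52 and 0.83 against 0.11 and 0.08 TPM and PTCHD1, a membrane protein related to Patched, at 5.42 and 2.80 against 0.50 and 0.24 TPM. ACOT4, a peroxisomal thioesterase, was at 13.8 and 12.2 TPM in UT, 2.65 and 3.30 TPM in Ni-E and 6.87 and 7.26 TPM in Ni-W cells. HENMT1, which methylates the ends of small RNAs in the germ line, was at 17.2 and 14.04, 6.11 and 5.45, and 10.4 and 8.17 TPM. Their log2 fold changes in Ni-E cells ran from -3.65 ± 0.58 (CLDN3) to -1.44 ± 0.20 (HENMT1), with adjusted p from 0.0266 to 0.0448 (edgeR). In Ni-W cells CPZ was back at 1.17 and 1.31 TPM, near the UT libraries (1.43 and 1.96 TPM), while PTCHD1 was at 0.69 and 0.26 TPM, and neither was called against UT.

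After 2 weeks without nickel in RT4 cells, 7 genes of the set were called higher than in UT cells (3.95%, beside 0.503%) and 0 lower (beside 0.0965%). An unadjusted p below 0.05 was found for 51 (28.8%, beside 9.12%), and DESeq2 called 21 higher and 1 lower. The 7 were IFITM1, PDZK1IP1, C1S, C3, EFEMP1, TMEM37 and CXCL8. PDZK1IP1 was at 7.33 and 6.71 TPM (4.0 ± 0.47, adjusted p = 0.0367, edgeR). TMEM37, a membrane protein related to calcium channel γ subunits, was called in Ni-W cells and not in Ni-E cells, at 5.46 and 4.58, 5.72 and 4.76, and 21.0 and 19.9 TPM (1.99 ± 0.23 in Ni-W against UT cells, adjusted p = 0.0340, edgeR), and its difference between Ni-W and Ni-E cells had an adjusted p of 0.148. None of the 7 was called when either UT or either Ni-E replicate was left out or when only the UT and Ni-W libraries were fitted. Between Ni-W and Ni-E cells 0 genes of the set and 0 of all genes (0%) were called in edgeR, with an unadjusted p below 0.05 for 24 of 177 (13.6%, beside 5.57%), and DESeq2 called 2 higher and 1 lower. With the replicate number as a block, edgeR called 22 of the set here (14 higher, 8 lower). That fit called 47 in Ni-W against UT cells (32 higher, 15 lower), so both counts depend on the fit. The comparisons with UT cells share the UT libraries.

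**Figure D4:**
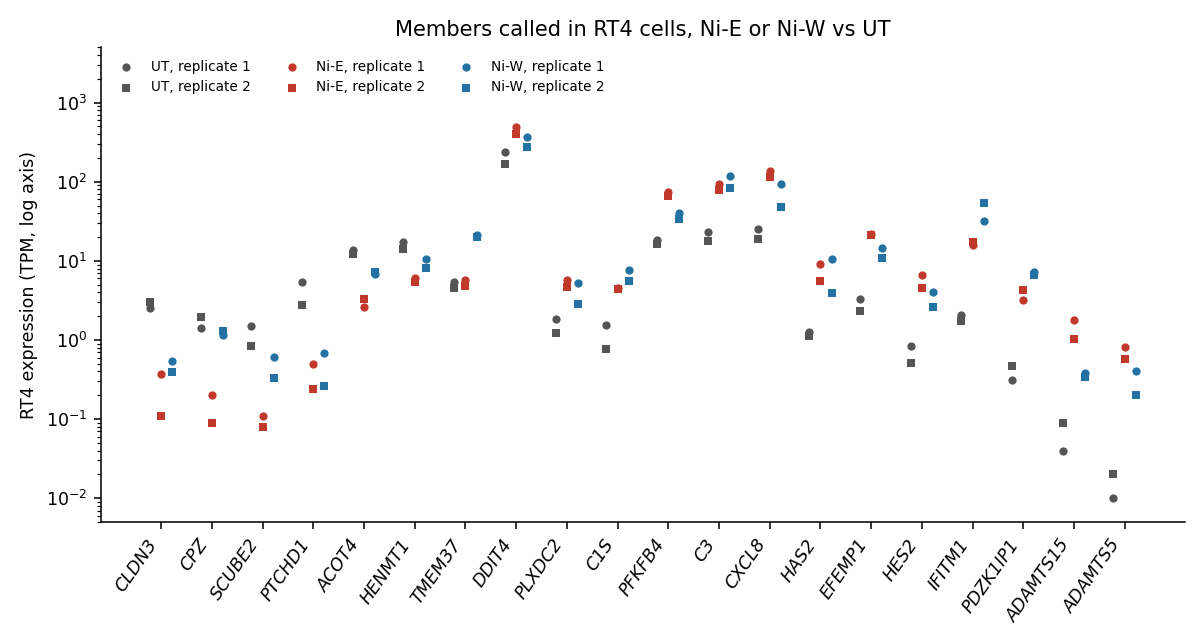
RT4 expression (TPM, log axis) of the 20 genes with a lowered BEAS-2B promoter that were called in Ni-E or Ni-W against UT cells, ordered by their log2 fold change in Ni-E cells. Circles are replicate 1 and squares replicate 2. In the 6 genes on the left the red Ni-E points lie below the UT points, and in the 13 on the right, from DDIT4 to ADAMTS5, they lie above, with TMEM37 between at 5.72 and 4.76 TPM.

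The remaining immune, epithelial and cell cycle genes of the groups were not called in RT4 cells in the edgeR fit without a block. Calls depended on the fit. Between Ni-E and UT cells that fit called 19 genes of the set, DESeq2 30, and edgeR with the replicate number as a block 65. STAT5A, a transcription factor downstream of cytokine receptors, was at 3.04 and 2.24 TPM in UT, 0.66 and 0.35 TPM in Ni-E and 1.97 and 0.90 TPM in Ni-W cells (adjusted p = 0.0565 between Ni-E and UT, edgeR). CADM4, an adhesion molecule, was at 13.7 and 14.6, 38.6 and 37.0, and 28.0 and 29.9 TPM (adjusted p = 0.0579, edgeR). CDC25B was at 23.9 and 23.3, 15.4 and 13.8, and 21.7 and 19.5 TPM (adjusted p = 0.170, edgeR). KRT17 was at 1089 and 1176 TPM in Ni-E cells (adjusted p = 0.552, edgeR). CDKN2B, MIR15B, MIR16-2, TNFRSF11B and MT1E were listed at 0 in all 6 libraries, and CLMP did not pass 0.05 TPM in any.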

How the data were processed

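H3K4me3 in BEAS-2B cells and RNA in RT4 cells were measured. The authors aligned ChIP reads to hg38 with BWA, kept single copies of redundant reads and deposited an RPKM value per promoter. These were whole multiples of a step in all 3 libraries (100% of values), from which reads and depth were recovered. RT4 tables hold RSEM estimated counts, 97.94% whole, and TPM, per the file headers as deposited. The study describes STAR on hg19 for RNA, and the labels list GRCh38. The windows of 300 bases were read from hg38 at GENCODE start sites. ChIP inputs were not analysed here.

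The 314 members, gene lists and function groups were chosen with earlier results of these data known. With 1 ChIP library per condition no test was made. Estimated counts were rounded and tested with edgeR 4.0.16 (quasi-likelihood, TMM, filterByExpr, 3 groups in 1 model, Benjamini-Hochberg over 14502 genes). Calls needed 1.5-fold and an adjusted p below 0.05. The study calls the replicates biological, without saying whether they were separate cultures. The script was checked on simulated counts. Alternatives used DESeq2 1.42.0, limma 3.58.1, the replicate number as a block, other scalings, filters and thresholds.

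Named genes were the 12 lowest scores, the 3 on each side of the threshold, genes of the study's categories, the 6 extremes of washout, the 5 largest RT4 calls each way and the 5 most abundant in UT cells. Genes of the function groups and all other RT4 calls were named after their values were seen. Results for a few genes are not reported here.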

Additional observations from a re-analysis of the deposited data

How the results depend on the processing

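Without scaling by the library medians, the rule takes in 2761 promoters, of which 2429 were also at -0.16 or less in Ni-W vs UT cells. Their median Ni-W vs UT and Ni-W vs Ni-E scores were -0.608 and -0.372 (reversed), 1807 were at 1 TPM or more in RT4 UT cells, and 73 and 26 were called in RT4 Ni-E and Ni-W cells against UT. This setting moved the median of all promoters to -0.0168, -0.193 and -0.181 in the Ni-E vs UT, Ni-W vs UT and Ni-W vs Ni-E scores. Quantile normalization gave 748 promoters, 289 low in washout, medians of -0.102 and 0.0950, 409 at 1 TPM or more and 30 calls in Ni-E cells. A threshold of -0.25 left 57, with 24 low in washout, medians of -0.0798 and 0.187, 24 at 1 TPM or more, and 5 and 2 calls. At a mean of 5 TPM or more 91 genes remained. Keeping promoters of 1 RPKM or more, or 1 promoter per 4 kb, moved no count by over 1.5 times. Without scaling, the Ni-W vs UT scores of CDKN2B, ABI3BP and IGFBP7 reversed to -0.260, -0.0465 and -0.139, and under quantile normalization those of LOXL1 and KCNJ2 to 0.0365 and 0.00285. The cause was not tested.

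In RT4 cells, calls in Ni-E and Ni-W against UT cells numbered 30 and 22 with DESeq2 (3 in Ni-W against Ni-E), 9 and 4 with limma on log2(TPM + 1), and 10 and 4 with at least 10 counts in every sample. They numbered 25 and 11 with no filter and 22 and 0 when only the groups compared were fitted. Leaving out 1 library gave 0 to 19 and 0 to 3 calls. The fit then assumes that the lone library varies like the other groups. Without UT replicate 1 EFEMP1 alone kept its call, without UT replicate 2 or either Ni-E replicate 0 did, and without Ni-W replicate 1 or 2 the Ni-W calls were 2 and 3. No direction of a called gene reversed under these fits. With the replicate number as a block 65 genes (33 higher, 32 lower), 47 (32 and 15) and 22 (14 and 8) were called in Ni-E vs UT, Ni-W vs UT and Ni-W vs Ni-E cells. Libraries of the same number deviated together (r across genes of 0.794, 0.878 and 0.791 for the pairs of groups). Replicate 2 was also the deeper in each group, and the labels do not say what a number marks. A shared culture or batch therefore cannot be told apart from depth. With 2 replicates and 1 ChIP library per condition, the spread between cultures and depth limit what can be seen.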
